A study of Homo sapiens with 7 samples.

Results

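The polyubiquitin gene UBB and 8 heat shock genes, HSPA1A, HSPA1B, HSPA8, HSPA5, HSP90AA1, HSP90AB1, DNAJB1 and HSPH1, were described in HCT116 chromatin by every peak interval over each gene body and the 10 kb on either side of it. These are 9 of the 20163 protein-coding genes of GENCODE on hg19. The genes were chosen by their names with the peaks of these same lists in view, and above all for H3K36me3 peaks that meet the H3K4me3 peak in a short gene. The position and height of those peaks are therefore given as a description. HCT116 is an established cell line from a human colorectal carcinoma. In PIXUL-ChIP-seq the crosslinked cells are sheared by ultrasound in the wells of the culture plate and the chromatin is then immunoprecipitated. The labels give 200000 cells per well in 100 µl with 6 min of sonication, and they name no treatment, so every library comes from the same kind of untreated culture. Each antibody (H3K4me3, H3K9Ac, H3K4me1, H3K36me3, H3K27me3 and CTCF) has 1 library and 1 peak list, and the H3K27Ac library was not analysed here. There were no replicates, so no difference below was tested and none carries an error. The lists hold no read counts, and the depth behind each value is unknown.

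Heat shock proteins are chaperones that hold, fold and refold other proteins, and ubiquitin marks proteins for removal by the proteasome. Cells transcribe some of these genes at all times and switch others on when proteins unfold. In the classical response, heat shock factor 1 binds heat shock elements, which are inverted repeats of a short GAA unit, whereas the chaperones of the endoplasmic reticulum answer to the unfolded protein response. H3K4me3 and H3K9Ac mark the start of transcribed genes, H3K36me3 is laid down behind elongating RNA polymerase II over the gene body, H3K4me1 flanks starts and marks enhancers, H3K27me3 marks genes held silent by Polycomb, and CTCF is an insulator protein.

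Each of the 9 genes had an interval of H3K4me3, H3K9Ac and H3K36me3 in the deposited lists, although H3K36me3 passed the limits of the study's Methods in 4 of them. An H3K4me3 interval lay within 1 kb of the transcription start site (TSS) of the canonical transcript in 9 of 9 genes, against 61.6% of protein-coding genes, and an H3K9Ac interval in 9 of 9, against 64.3%. An H3K36me3 interval lay over the body of 9 of 9 genes, where 56.3% of all protein-coding genes had one. Among protein-coding genes no longer than HSP90AA1 (58958 bp), the longest annotation here, that share was 53.8%. No H3K27me3 interval touched any of the 9 gene bodies, against 20.7% of protein-coding genes. Because the genes were picked with these lists known, the shares describe them and are not evidence that they differ from other genes.

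The height of a peak is given as fold enrichment, the ratio of its signal to the background estimated by the peak caller. In these broad peaks it describes the whole interval and not its highest point. Intervals differed much in width, for H3K36me3 at the 9 genes from 774 to 27591 bp. The part of width in the values was not tested. Values are compared between genes within 1 library only. The Methods of the study set limits for a reported peak, which were a q-value below 1e-10 with fold enrichment above 5 for H3K4me3, H3K9Ac, H3K36me3 and CTCF, and a q-value below 1e-03 with fold enrichment above 2 for H3K4me1 and H3K27me3. The deposited lists contain intervals on both sides of these limits, and all were used unless stated. Around the 9 genes there were 114 intervals, of which 71 passed the limits. H3K4me3 gave 17 of them, H3K9Ac 26, H3K4me1 31, H3K36me3 25, CTCF 14 and H3K27me3 1.

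**Figure D1:**
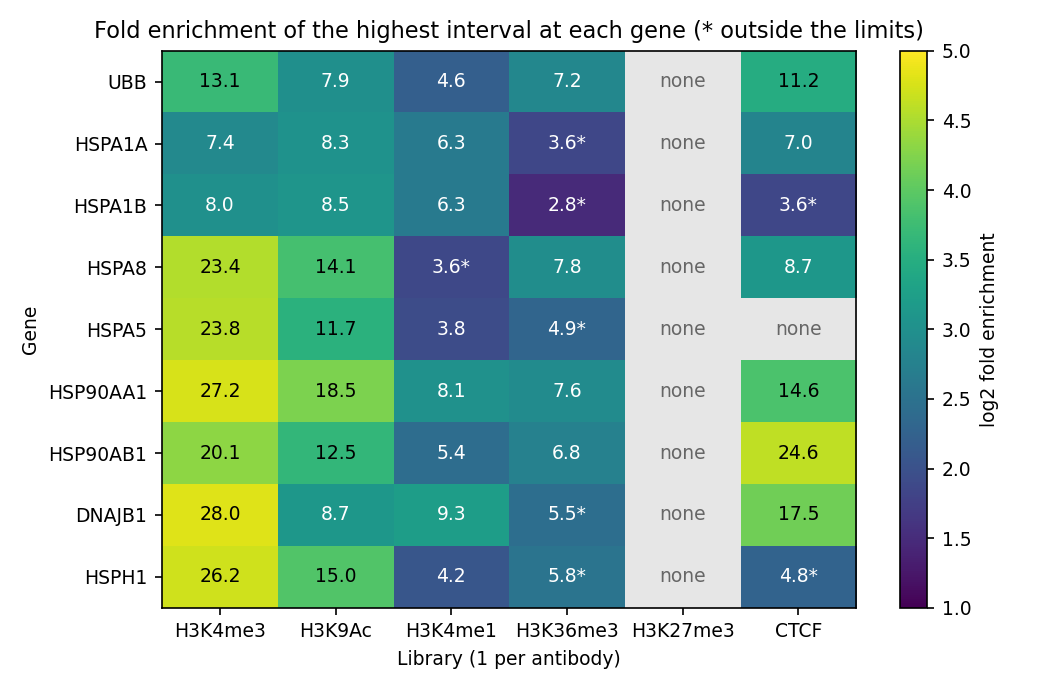
Fold enrichment of the highest interval at each of the 9 genes (rows) in each of the 6 libraries (columns), printed in each cell and coloured on a log2 scale. An asterisk marks a value outside the limits of the Methods and "none" marks a gene with no interval. H3K4me3 ranges from 7.41 at HSPA1A to 28.0 at DNAJB1, and H3K36me3 from 2.78 at HSPA1B to 7.82 at HSPA8.

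UBB encodes ubiquitin as a head-to-tail chain, so that 1 messenger gives several ubiquitin molecules. In GENCODE it spans chr17:16284112-16286059 on the plus strand of hg19, and its canonical transcript measures 1650 bp with 2 exons. The coding sequence of 687 bp holds 3 units of 76 residues. The units have identical residues, while their bases differ at 14 of 228 positions. The stretch below covers residues 6 to 15 of each unit, a stretch of 30 bases with 4 of these positions, and it shows how alike the repeats under the UBB peaks are. Capitals mark the 4 positions at which the units differ (hg19, plus strand).
UBB unit 1, chr17:16285237-16285266: aaAaccctTaccggcaagaccatcacCctT
UBB unit 2, chr17:16285465-16285494: aaGaccctGaccggcaagaccatcacCctG
UBB unit 3, chr17:16285693-16285722: aaGaccctGaccggcaagaccatcacTctG

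UBB combined a low H3K4me3 peak with one of the highest H3K36me3 peaks. Its H3K4me3 interval had a fold enrichment of 13.1, above 15.3% of the protein-coding genes with such an interval, and ran from 328 bp before to 1185 bp after the TSS. Its H3K36me3 interval reached 7.21 and was number 32 in the list of 40010. It began 559 bp after the TSS in intron 1, shared 627 bp with the H3K4me3 interval, and ended 1725 bp past the end of the transcript. The H3K36me3 interval was thus longer (2816 bp) than the transcript itself. It also held the annotated start of a long non-coding RNA, as did the H3K9Ac interval at the UBB TSS.
H3K9Ac at UBB was also low, at 7.94, above 15.7% of genes, and its interval held the whole transcript. A second set of peaks lay downstream of UBB with no annotated start inside. There an H3K4me3 interval (fold enrichment 9.83) ran from 4689 to 6932 bp after the TSS, with an H3K9Ac interval of 10.2 and a CTCF interval of 11.2 over the same bases. A single H3K4me1 interval of 9615 bp (4.64) overlapped both sets and ended 7137 bp after the TSS.

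HSPA1A and HSPA1B encode the stress-inducible HSP70, a chaperone that heat induces strongly. They are intronless neighbours in the major histocompatibility complex region, HSPA1A at chr6:31783320-31785723 and HSPA1B at chr6:31795515-31798031, both on the plus strand. Their coding sequences of 1923 bp differ at 4 positions and encode identical residues (641). Over the 250 bp before the TSS they differ at 16 positions, an identity of 93.6%. Both hold a heat shock element of 2 units and a TATAAA box at nearly the same distance from the TSS, and these stretches are shown because the copies can be told apart there only by a few bases. Capitals mark the GAATATTC element and, in the second line of each gene, the TATAAA box (hg19, plus strand).
HSPA1A element, chr6:31783203-31783232: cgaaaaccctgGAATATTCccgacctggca
HSPA1A TATAAA, chr6:31783278-31783307: tccgtgacgactTATAAAagcccaggggca
HSPA1B element, chr6:31795399-31795428: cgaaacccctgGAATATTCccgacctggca
HSPA1B TATAAA, chr6:31795474-31795503: tccacgacgactTATAAAagccgaggggcg

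The 2 inducible HSP70 genes had the lowest H3K4me3 and H3K36me3 values of the 9. H3K4me3 at the TSS was 7.41 at HSPA1A, above 5.14% of protein-coding genes, and 8.00 at HSPA1B, above 6.05%. H3K9Ac was 8.26 at HSPA1A and 8.54 at HSPA1B, above 17.5% and 18.9% of genes. H3K36me3 was 3.60 at HSPA1A and 2.78 at HSPA1B, both outside the limits.
The H3K36me3 interval at HSPA1A measured 774 bp, began 931 bp after the TSS within the coding part of the exon and lay wholly inside the H3K4me3 interval. At HSPA1B it measured 3267 bp, began at 799 bp, shared 1631 bp with H3K4me3 and ended 1549 bp past the transcript. These were the only H3K36me3 intervals among the 9 that began in a coding exon. The others began in an intron, which HSPA1A and HSPA1B do not have.
The copies also share sequence with each other. Of all 75-base words in the HSPA1A H3K36me3 interval, 100% occurred elsewhere in hg19, and of those in its H3K4me3 interval 50.5% did. At HSPA1B the shares were 35.3% and 45.5%, whereas no interval of these marks at the other 7 genes exceeded 6.27%. Over the canonical transcripts, 73.8% of the words at HSPA1A and 70.2% at HSPA1B occurred elsewhere. A single read from such a word has more than 1 place in the genome. By the study's Methods the reads were paired, and a mate in unshared sequence can place them. The word shares are therefore not shares of ambiguous reads. The part of shared sequence in the values of HSPA1A and HSPA1B was not tested.
The signal around this pair also belonged to its neighbours. The H3K4me3 interval of HSPA1A contained the TSS of HSPA1L, the divergent HSP70 gene of the testis, and the H3K9Ac interval of HSPA1B, 19315 bp wide, also held the start of the long non-coding RNA SNHG32. The H3K4me1 interval of 13853 bp (fold enrichment 6.25) covered the HSPA1A TSS and ended 711 bp before that of HSPA1B.

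HSPA8 encodes the HSP70 that all cells keep, HSC70, which serves folding and clathrin uncoating at normal temperature. It lies at chr11:122928197-122933938 on the minus strand, with a canonical transcript of 4648 bp. Its residues were 85.8% identical to those of HSPA1A. H3K4me3, H3K9Ac and H3K36me3 were higher than at the inducible pair. H3K4me1 was 3.64, against 6.25 in the 1 interval counted for both genes of the pair. A separate H3K4me1 interval over the HSPA1B body had 3.50. H3K4me3 was 23.4, above 56% of genes, and H3K9Ac 14.1, above 64.1%.
H3K36me3 at HSPA8 reached 7.82, number 15 of the list and the highest of the 9 genes. The interval began 601 bp after the TSS in intron 1, shared 1490 bp with H3K4me3 and ran 4556 bp past the transcript. H3K9Ac spanned 12809 bp and held the whole transcript as well, together with the small nucleolar RNA genes SNORD14C, SNORD14D and SNORD14E in the introns.

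HSPA5 encodes BiP, the HSP70 of the endoplasmic reticulum lumen and a sensor partner in the unfolded protein response. It lies at chr9:127997132-128003661 on the minus strand, with a canonical transcript of 6491 bp. H3K4me3 was 23.8, above 57.9% of genes, and H3K9Ac 11.7, above 41.8%. H3K36me3 was 4.94, outside the limits, and ranked 504 in the list.
The H3K36me3 interval began 815 bp after the TSS in intron 2, shared 557 bp with H3K4me3 and ended 6480 bp past the transcript, inside the convergent gene RABEPK. Part of its length can therefore belong to RABEPK, and the shares of the 2 genes cannot be told apart. HSPA5 was the only gene of the 9 with no CTCF interval within 10 kb.

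HSP90AA1 and HSP90AB1 encode the inducible and the constitutive cytosolic HSP90, which complete the folding of kinases and steroid receptors. Their residues were 86.3% identical. GENCODE gives HSP90AA1 at chr14:102547079-102606036 on the minus strand, but its canonical transcript measures only 6303 bp. HSP90AB1 lies at chr6:44213903-44221625 on the plus strand, with a canonical transcript of 6783 bp.
Of the pair, HSP90AA1 had the higher value for all 4 active histone marks. H3K4me3 was 27.2 against 20.1, H3K9Ac 18.5 against 12.5, H3K4me1 8.12 against 5.36 and H3K36me3 7.64 against 6.79. H3K9Ac at HSP90AA1 lay above 90.1% of protein-coding genes and H3K4me1 above 97.5%, while at HSP90AB1 they lay above 49.4% and 76.2%. With 1 library per mark, the size of the error on these differences is unknown.
The layout of H3K36me3 in the pair was alike. At HSP90AA1 it began 634 bp after the TSS, shared 950 bp with H3K4me3 and ended 3852 bp past the transcript, as number 19 of the list. At HSP90AB1 it began at 561 bp, shared 1669 bp and ended 2298 bp past the transcript, as number 53. The HSP90AB1 interval entered SLC35B2, whose own promoter carried H3K4me3 of 29.7 beginning 9175 bp after the HSP90AB1 TSS. The long annotation of HSP90AA1 reached the WDR20 promoter, where the second H3K4me3 interval (24.8) within the gene lay.

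DNAJB1 encodes HSP40, the J-domain partner that delivers clients to HSP70 and starts its ATPase. It lies on the minus strand at chr19:14625581-14671203, while the canonical transcript has 3629 bp. DNAJB1 had the highest H3K4me3 of the 9 genes (28.0, above 76.7% of protein-coding genes) and the highest H3K4me1 (9.32, above 99%). H3K9Ac in contrast was 8.68, above 19.8% of genes, in an interval of 17433 bp that held the whole transcript. H3K36me3 was 5.46, number 278 of the list, began 900 bp after the TSS in intron 1, shared 857 bp with H3K4me3 and ended 1410 bp past the transcript. The other 7 H3K36me3 intervals over the long annotation and its flank, from 2.51 to 3.76, lay under TECR and NDUFB7. The annotation of TECR overlaps the interval of 5.46 too, and the parts of DNAJB1 and TECR cannot be told apart.

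HSPH1 encodes HSP105, an HSP110 protein that exchanges nucleotide on HSP70. It lies at chr13:31709110-31736525 on the minus strand, and its canonical transcript of 26932 bp is by far the longest of the 9. H3K4me3 was 26.2, above 69.3% of genes, and H3K9Ac 15.0, above 71.2%. H3K36me3 of 5.79, number 179 of the list, ran over 27591 bp as 1 interval. It began 1617 bp after the TSS and shared only 57 bp with H3K4me3. The single H3K27me3 interval near any of the 9 genes lay past the 3′ end of HSPH1, from 36001 to 38655 bp after the TSS, with a fold enrichment of 2.79 outside the limits.

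**Figure D2:**
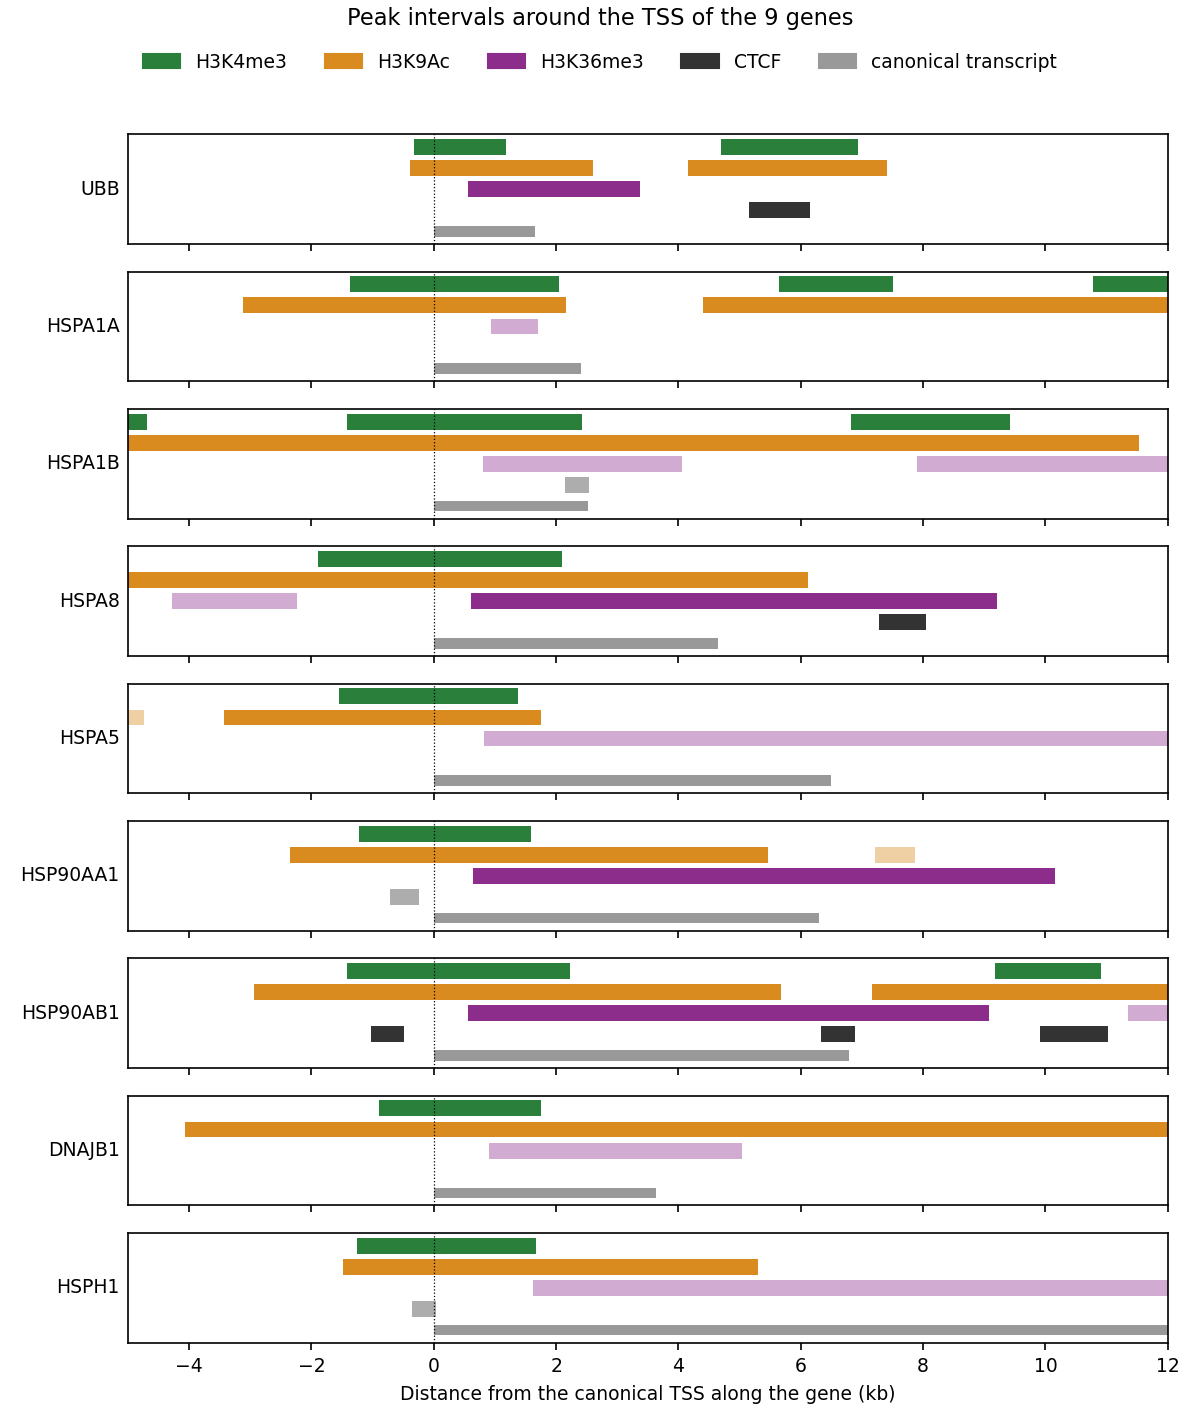
Intervals of H3K4me3, H3K9Ac, H3K36me3 and CTCF around the TSS of each gene, drawn to scale from 5 kb before to 12 kb after the TSS in the direction of transcription, with the canonical transcript in grey. Pale bars are intervals outside the limits of the Methods. In each gene the H3K36me3 bar begins beneath the downstream part of the H3K4me3 bar, from 559 bp at UBB to 1617 bp at HSPH1.

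The relation of H3K36me3 to H3K4me3 was the feature the genes were selected on, so it is given without any reading against the background. The H3K36me3 interval shared bases with the H3K4me3 interval at the TSS in 9 of 9 genes. With the limits of the Methods applied to both marks, 4 of the 9 genes kept both intervals, and all 4 shared bases. Among protein-coding genes with both intervals, 17.2% did so, or 73.4% of the 94 with both past the limits, and 22.1% among those no longer than HSP90AA1. With canonical transcripts up to 10 kb, a limit chosen after the data were seen, the share was 37.2%. H3K36me3 began a median of 799 bp after the TSS in the 9 genes, 2260 bp in all 10145 genes with both intervals and 1479.5 bp in those with a transcript up to 10 kb. The stretch shared was 57 to 1669 bp, with a median of 857 bp, beside 269.5 bp over the 1742 genes that shared any. At 8 of the 9 genes H3K36me3 ran past the end of the canonical transcript, by 1410 to 6480 bp, and at HSPA1A it stopped 695 bp short. It ran past the end in 28.7% of protein-coding genes with both intervals and in 68.7% of those with a transcript up to 10 kb.

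**Figure D3:**
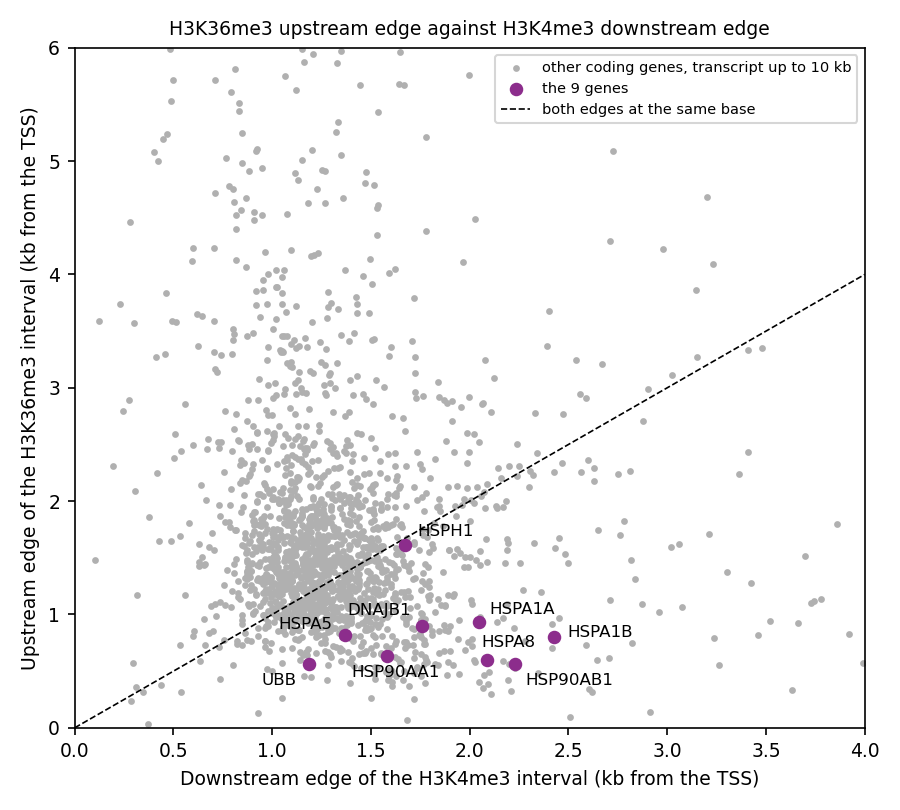
Upstream edge of the H3K36me3 interval (vertical axis, kb from the TSS) against the downstream edge of the H3K4me3 interval (horizontal axis, kb from the TSS) for the 9 genes and for other protein-coding genes with a canonical transcript up to 10 kb that fall within the axes. Points under the dashed line share bases between the marks. All 9 genes lie under it, with HSPH1 (57 bp shared) closest.

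H3K36me3 passed the limits of the Methods at UBB, HSPA8, HSP90AA1 and HSP90AB1. Of the 90 H3K36me3 intervals in the whole list that passed, 4 lay at these genes. Only 0.496% of protein-coding genes had such an interval, and since H3K36me3 height was in view when the genes were picked, nothing follows from the 4 of 9. Just inside the limits stood HSP90AB1, with a −log10 q of 11.6, and just outside HSPH1, with 8.17. The fold enrichments of all 9 had a median of 5.79, beside 3.53 over protein-coding genes with an interval. HSPA1B (2.78) fell below that value, HSPA1A (3.60) was close to it, and the other 7 lay above 94.4 to 99.9% of genes with an interval. The ratio of H3K4me3 to H3K36me3 fold enrichment, a comparison of 2 libraries, was lowest at UBB (1.82) and highest at DNAJB1 (5.13).

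**Figure D4:**
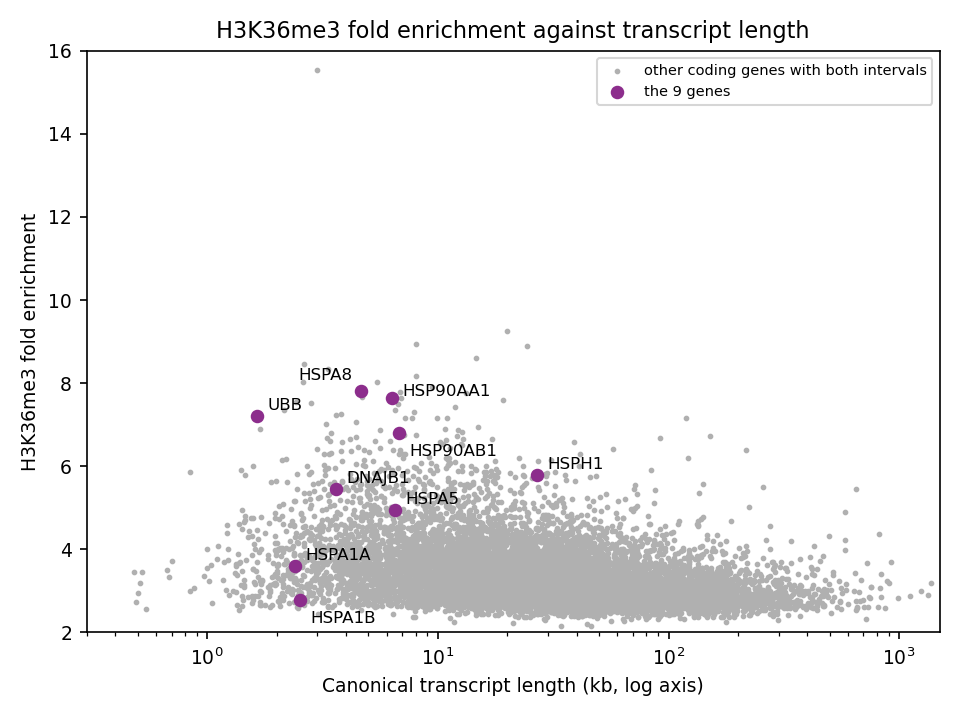
H3K36me3 fold enrichment (vertical axis) against canonical transcript length in kb (horizontal, log axis) for the 9 genes and the other protein-coding genes with both an H3K36me3 and an H3K4me3 interval. UBB (7.21), HSPA8 (7.82), HSP90AA1 (7.64) and HSP90AB1 (6.79) stand near the upper edge, whereas HSPA1A (3.60) and HSPA1B (2.78) lie lower.

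H3K9Ac, H3K4me1, CTCF and the promoter sequence played no stated part in picking the genes, although their values were known. H3K9Ac enclosed the whole H3K4me3 interval in 9 of 9 genes, as in 88.9% of protein-coding genes with both. It enclosed the whole canonical transcript in 4 (UBB, HSPA1B, HSPA8 and DNAJB1), where 16.7% of protein-coding genes with H3K9Ac at the TSS and a transcript up to 10 kb showed this. That limit leaves out HSPH1 (26932 bp). The transcripts of the 4 genes measure 1650 to 4648 bp, and the shares were not matched for length. The median H3K9Ac fold enrichment of 11.7 was close to the 12.6 of protein-coding genes.

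H3K4me1 lay within 1 kb of the TSS in 9 of 9 genes, against 61.2% of protein-coding genes. That share includes genes with no H3K4me3 interval at the TSS, while the 9 were picked with H3K4me3 peaks in view. Nothing therefore follows from the contrast. The H3K4me1 interval passed the limits in 8 of the 9 genes, and that of HSPA8 (3.64) did not. The intervals mostly stood aside from the TSS. Only those of UBB and HSPA1A contained it, 2 of 9, against 63.9% of protein-coding genes with an H3K4me1 interval that near, whether or not they had H3K4me3. At the other 7 genes H3K4me1 flanked the TSS on both sides. The gap ended 684 bp after the TSS at HSPA8, 845 bp at HSPA5 and 996 to 1530 bp at HSPA1B, HSP90AA1, HSP90AB1, DNAJB1 and HSPH1. Upstream the nearest edge lay 238 bp before the TSS at HSPH1 and 1937 bp before it at HSPA8. The upstream flank was the higher one at these 7 genes, against 59.1% of the protein-coding genes flanked in this way. At HSPA1B that flank is the interval over HSPA1A. The values were, for example, at DNAJB1 9.32 upstream and 5.57 downstream, and at HSP90AA1 8.12 and 4.68.

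CTCF lay over the gene body or within 10 kb of it in 8 of 9 genes, against 78.9% of protein-coding genes. The highest value was 24.6, at the SLC35B2 promoter 9918 to 11030 bp after the HSP90AB1 TSS. HSP90AB1 had 4 CTCF intervals, of which one (10.3) lay 496 to 1022 bp before its TSS. The CTCF interval of HSPA1A (6.96) was at the LSM2 promoter, and that of HSPA1B (3.63) covered its 3′ end.
At HSPH1 a weak interval (4.81) crossed the TSS, and at HSP90AA1 a weak one (3.84) ended 245 bp before it. An exact match to the CTCF core motif of 12 bases occurred in 1 of the 14 intervals, against 15.7% of all 44812 CTCF intervals. It lay downstream of HSPA8, within an interval of fold enrichment 8.72 that began 7279 bp after the TSS, and is shown with 8 bases on each side and the core in capitals (hg19, minus strand, core at chr11:122925176-122925187).
HSPA8 CTCF core: atctttgtCCACTAGATGGCagtagcta

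Promoter sequence was read from hg19 over the 250 bp before and 50 bp after each canonical TSS, on both strands. A heat shock element of 2 units (GAANNTTC or TTCNNGAA) occurred in 6 of the 9 genes, against 11.1% of protein-coding genes. UBB, HSPA5 and HSP90AB1 had none. All but UBB were picked by name as heat shock genes, and HSPA1A and HSPA1B are near-identical copies with the same GAATATTC. The count is therefore a description. An element of 3 units in alternation, which contains 2 overlapping elements of 2 units, occurred at HSPA8, HSP90AA1 and HSPH1, against 0.357%. The stretches around the elements, with the element in capitals, show the shared alternation of GAA and TTC (hg19, minus strand).
HSPA8, chr11:122933053-122933082: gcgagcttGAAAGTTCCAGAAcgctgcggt
HSPA8, chr11:122932878-122932907: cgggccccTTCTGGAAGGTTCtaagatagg
HSP90AA1, chr14:102553448-102553477: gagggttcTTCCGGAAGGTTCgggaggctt
HSPH1, chr13:31736079-31736108: gccgcagaTTCTGGAAAGTTCtgatcagtg
DNAJB1, chr19:14629268-14629297: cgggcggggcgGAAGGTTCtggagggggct
DNAJB1, chr19:14629238-14629267: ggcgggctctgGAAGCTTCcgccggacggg

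The 2 elements of HSPA8 began 230 and 55 bp before the TSS. The element of 3 units began 59 bp before the TSS at HSPH1, and at DNAJB1 the nearer element of 2 units began 47 bp before it. That of 3 units in HSP90AA1 began 88 bp before it. In HSPA1A and HSPA1B the element began 106 and 105 bp before the TSS. A further element of 2 units began 139 bp before the TSS at HSPH1 and 68 bp before it at HSP90AA1. At HSPA5 the motif found was instead CCAAT followed after 9 bases by CCACG, the form of the endoplasmic reticulum stress element. It occurred in 0.104% of protein-coding genes and in no other of the 9, and is shown with both parts in capitals (hg19, minus strand).
HSPA5, chr9:128003664-128003693: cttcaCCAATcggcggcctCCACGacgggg

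CCAAT alone, which may lie within that motif, was present in 6 of the 9 promoters and in 35.9% of all. TATAAA was present at HSPA1A and HSPA1B and in 9.8% of all. These matches are letters in a window and were not tested for binding.

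By likeness of pattern over the 6 libraries, none of the other 8 genes was among the nearest to UBB. The measure was the Euclidean distance between log2(1 + highest fold enrichment) over the gene body and 1 kb around it, with 0 where no interval lay. The 5 nearest protein-coding genes were ZNF808 (distance 0.40), RABEPK (0.57), RPL23 (0.60), RPL35A (0.60) and NR1D1 (0.61). The H3K36me3 value of RABEPK (4.94) comes from the interval that is also counted at HSPA5. Of the 9, HSPA5 (1.07), HSPA8 (1.12) and HSPA1A (1.18) were closest to UBB, with 418 other genes nearer than HSPA5. DNAJB1 (4.47) and HSP90AA1 (4.30) were farthest, and both have a CTCF interval of 14.6 or more within their long annotated bodies, where UBB has none.

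Other genes of protein folding and ubiquitin were taken as lists of 84 symbols, of which 83 were found in the annotation. H3K4me3 lay at the TSS of 75 of the 83 and H3K36me3 over the body of 71. These counts use all deposited intervals, and under the limits of the Methods H3K36me3 was left in 1 gene, HSPD1. H3K36me3 shared bases with H3K4me3 in 34 of the 68 with both. The median H3K36me3 fold enrichment was 4.19, beside 5.79 for the 9 genes.
The chaperonins, the barrel-shaped folding machines of the cytosol and mitochondria, came closest to the 9 genes in H3K36me3. All 11 had H3K4me3 and H3K36me3, with bases shared in 10, and a median H3K36me3 of 5.43. In the remaining gene the H3K36me3 interval lay upstream of the canonical TSS. HSPD1, the mitochondrial HSP60, had the highest H3K36me3 among the 11 (7.76), past the limits. Its H3K4me3 interval was also counted for its neighbour in the list. H3K4me1 was within 1 kb of the TSS in 8 of the 11 and CTCF was near 4, fewer than among the 9 genes.
The small heat shock genes, which encode holding chaperones such as the lens crystallins, stood at the other end. Only 3 of the 9 found had H3K4me3, and 3 had H3K36me3, led by HSPB1 (3.49). HSPB2, HSPB3, HSPB7, HSPB9, CRYAA and CRYAB had no H3K4me3 interval within 1 kb of the TSS. The other genes without one were HSF5, a heat shock factor, and HSPA12B, a distant HSP70 relative.
Cochaperones of HSP70 and HSP90 had H3K4me3 and H3K36me3 at all 18 genes, with bases shared in 8 and the highest H3K36me3 at AHSA1 (5.35), an activator of the HSP90 ATPase. Endoplasmic reticulum chaperones and unfolded protein response genes had both at all 15, shared in 7, led by CALR (5.48), the calcium-binding lectin chaperone calreticulin. J-domain genes had H3K36me3 at 10 of 12, led by DNAJA1 (5.91), and shared bases in 3.
Of the 11 other HSP70 and HSP110 genes, 10 had H3K4me3 and 8 had H3K36me3, led by the mitochondrial HSPA9 (5.74). The 2 other HSP90 genes had both marks, with HSP90B1 of the endoplasmic reticulum at 5.78. Of the 4 heat shock factors, 3 had H3K4me3 and 3 H3K36me3, with HSF1 highest (4.65) and no bases shared in any. RPS27A, which encodes ubiquitin fused to a ribosomal protein, had both marks with bases shared and H3K36me3 of 4.56.

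**Figure D5:**
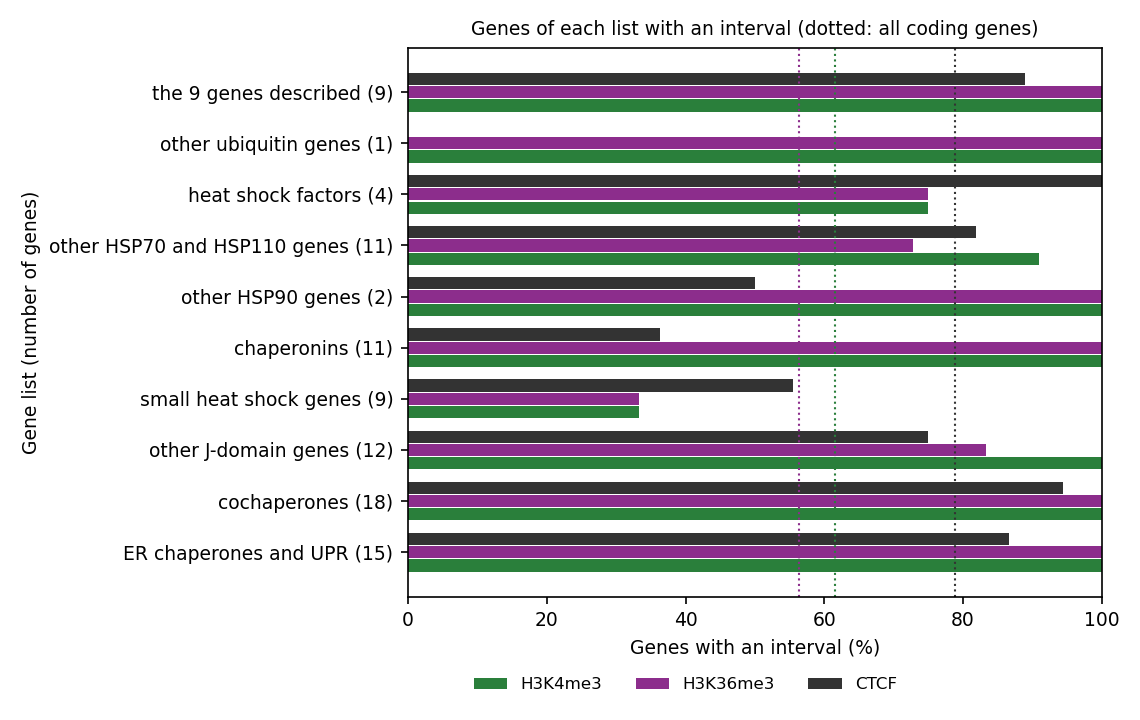
Share of genes in each list (percent, horizontal axis) with an H3K4me3 interval within 1 kb of the TSS, an H3K36me3 interval over the gene body and a CTCF interval within 10 kb, with the number of genes found in brackets. Dotted lines give the shares of all protein-coding genes, 61.6%, 56.3% and 78.9%. The 9 genes and the chaperonins are at 100% for both histone marks, and the small heat shock genes are at 33.3%.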

How the data were processed

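Peak lists of 6 PIXUL-ChIP-seq libraries from HCT116 cells were used, 1 library per antibody. For the alignment to hg19 the authors used BWA 0.7.12, and each library's broad peaks came from MACS2 (broad cutoff 0.1), while the submitters' processing notes name MACS 1.4.2, SAMtools 0.1.19 and bcl2fastq 2.20.0.442. The fold enrichment the authors deposited is a linear ratio over the peak caller's background. Like the fold enrichment, the −log10 p-values and −log10 q-values the authors deposited describe whole intervals. Since depth and mappability affect which intervals are called and how wide they are, and neither is given by the lists, absence of an interval is not absence of a mark.

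Genes came from GENCODE 44 on hg19 (20163 protein-coding, 19881 with a canonical transcript, and the 5′ end of the gene for the rest). H3K4me3, H3K9Ac and H3K4me1 were taken within 1 kb of the TSS, H3K36me3 and H3K27me3 over the gene body, and CTCF within 10 kb, with at least 1 bp of overlap. The interval with the highest fold enrichment was used, and for H3K36me3 against H3K4me3 the one sharing most with, or nearest to, the TSS interval. All 9 genes are named. From the lists of related genes the text names each without H3K4me3, each with H3K27me3 past the limits (0 genes) and the highest H3K36me3 per list. It also names the 5 genes nearest to UBB and neighbours whose TSS lies in a described interval. SNORD14C, SNORD14D and SNORD14E, NDUFB7 and the genes of the closing section were chosen after their values were seen. The genes and lists were chosen with earlier results of these data known. HSPB11 was not found by symbol, and 2 further genes of the lists are not reported here. No test was made. Overlap code was tested on simulated data, where 600 of 600 planted overlaps were recovered. Python 3.11.15, pandas 2.3.3, numpy 2.4.6, pyfaidx 0.9.0.4, edlib 1.3.9.post1, numba 0.67.0 and matplotlib 3.10.9 were used.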

Additional observations from a re-analysis of the deposited data

How the results depend on the processing

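Counts over the 9 genes that moved by more than 1.5 times follow. Under the limits of the Methods, H3K36me3 remained in 4 genes, sharing bases with H3K4me3 in 4, and 71 of the 114 intervals around the genes were left. With the fold enrichment limit multiplied by 1.5 these were 2, 2 and 66, and CTCF remained in 5. With a TSS window of 500 bp H3K4me1 was found in 5 genes. With at least 50% of the interval inside the window H3K4me1 was found in 2 and H3K9Ac in 0, since H3K9Ac intervals were wider than the window. With at least 50% of the H3K36me3 interval shared, 1 gene remained. Gene bodies without flanks held 69 intervals. The other 42 counts under an alternative did not move by that much, including those with HSPA1A and HSPA1B taken as 1 gene, which could not be applied to the count of intervals. In the lists of 83 related genes the limits left H3K36me3 in 1 in place of 71, and H3K27me3 in 0 in place of 6. Canonical transcripts as gene bodies, chosen after the data were seen, left H3K36me3 in 9 genes and bases shared in 9. Among protein-coding genes, bases were shared in 73.4% of the 94 with both intervals past the limits. Ranking among all annotated genes moved the percentages of the 9 genes by -1.5 to 8.6 points. Every value rests on 1 library, so the error is unknown, and the depth of the lists sets which weak intervals are called. No paired analysis was possible because each antibody has 1 library.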

Other observations

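HSPA6, a strictly heat-inducible HSP70 gene, had H3K4me3 of 4.33, outside the limits of the Methods, and H3K9Ac of 7.50 at its TSS. It had no H3K36me3 interval over its body. HSPA2, an HSP70 gene best known from the testis, had H3K4me3 of 7.82 and likewise no H3K36me3 interval. BAG3, an HSP70 cochaperone that is itself induced by heat, had H3K4me3 of 43.6. The highest H3K36me3 interval over BAG3 had 4.73, and another, of 3.76, shared 14 bp with H3K4me3. These genes were chosen after their values were seen.

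H3K27me3 intervals lay over 6 of the 83 genes of the lists, HSF5 (2.78), HSPA12A (2.71), CCT6B (3.33), CRYAB (2.76), HSPB8 (3.72) and CDC37 (2.81), all outside the limits of the Methods. HSPB8 also had H3K4me3 of 3.88 at its TSS, likewise outside the limits.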
